A study of Mus musculus with 6 samples.

Results

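A set of 10 genes of glycerolipid synthesis and lipid droplets was followed in cerebellar RNA of WT and KIKO mice: *Gk*, *Gpam*, *Agpat3*, *Agpat4*, *Lpin1*, *Dgat1*, *Plin2*, *Plin3*, *Pnpla2* and *Fabp3*. They are 10 of the 31053 genes in the count table and were taken by symbol, matched to the Ensembl identifiers of the table. *Agpat4* and *Gk* were included after their change in KIKO mice had been seen, so their values are given as a description and without a test. KIKO (knock-in knock-out) mice are a model of Friedreich's ataxia, and WT mice were C57BL/6 littermates. Libraries of 2 WT and 3 KIKO samples were used. A WT sample numbered 3 had no counts matched to its title and was not analysed here. The titles number the samples but do not say whether each comes from a single mouse. The labels give the cerebellum and the genotype, but neither age nor sex, and no treatment. The methods use mice of both sexes and describe microglia taken from the cerebellum by magnetic selection of CD45+ and then CD11b+ cells, whereas the labels describe no sorting.

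Glycerolipids are built by adding fatty acids to glycerol 3-phosphate. Glycerol kinase (*Gk*) makes glycerol 3-phosphate from glycerol, the mitochondrial acyltransferase encoded by *Gpam* adds the first fatty acid, and the enzymes of *Agpat3* and *Agpat4* add the second to give phosphatidate. Lipin 1 (*Lpin1*) removes the phosphate to give diacylglycerol, which *Dgat1* acylates to triglyceride. Triglyceride is stored in droplets coated by perilipins (*Plin2*, *Plin3*) and is broken down from the lipase of *Pnpla2* onwards, and *Fabp3* encodes a cytosolic protein that carries fatty acids. Microglia are known to store lipid droplets with age and inflammation.

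The 250 bases before the transcription start are shown for *Agpat4* and *Gk*, the genes included for their change, and for *Plin3*, which was past the thresholds of the comparison. Sequences are those of RefSeq on GRCm38.p6 and are written 5′ to 3′ on the strand of the gene, with the matches to 6 short motifs, on either strand, in capitals. The motifs were the E-box (CACGTG), the AP-1 motif (TGACTCA), the GC box (GGGCGG), the CCAAT box (CCAAT), the TATA box (TATAAA) and the half-site of nuclear receptors (AGGTCA).
Agpat4, chr17:12119034-12119283, plus strand: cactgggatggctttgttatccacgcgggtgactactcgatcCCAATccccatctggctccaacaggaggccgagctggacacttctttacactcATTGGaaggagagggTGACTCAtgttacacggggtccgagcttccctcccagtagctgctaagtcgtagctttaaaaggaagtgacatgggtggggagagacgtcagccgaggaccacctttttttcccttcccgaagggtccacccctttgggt
Gk, chrX:85776820-85777069, minus strand: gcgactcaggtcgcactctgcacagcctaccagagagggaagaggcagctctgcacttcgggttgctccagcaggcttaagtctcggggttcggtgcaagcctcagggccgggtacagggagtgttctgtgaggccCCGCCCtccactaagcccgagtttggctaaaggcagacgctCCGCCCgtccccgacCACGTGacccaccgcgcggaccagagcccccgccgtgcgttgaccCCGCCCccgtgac
Plin3, chr17:56290512-56290761, minus strand: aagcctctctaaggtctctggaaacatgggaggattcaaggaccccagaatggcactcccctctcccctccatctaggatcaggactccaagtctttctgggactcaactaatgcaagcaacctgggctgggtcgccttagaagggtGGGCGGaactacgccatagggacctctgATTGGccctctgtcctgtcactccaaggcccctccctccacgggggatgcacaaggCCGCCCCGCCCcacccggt
The windows of *Agpat4* and *Plin3* lie in an intron of annotated transcripts of the same gene that start further upstream, and that of *Gk* lies outside the gene. The *Agpat4* window held 1 AP-1 motif, which 4.46% of all 32851 RefSeq windows of this length held, and 2 CCAAT boxes (33.8% of windows held one). The *Gk* window held 1 E-box (6.02% of windows) and 3 GC boxes (32.7%). The *Plin3* window held 3 GC boxes, of which 2 share a base, and 1 CCAAT box. None of these 3 windows held the TATA box (12.4% of windows) or the half-site (14%). The windows thus shared no motif across all 3 genes. GC content was 55.2% for *Agpat4*, 67.2% for *Gk* and 60% for *Plin3*, where the median of all windows was 52.4%. Of the 10 genes, 9 had a window in the table. A match of letters was not tested for binding of a factor.

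The libraries held between 1013107 and 1351339 counts. Levels are given as normalized CPM, CPM from TMM-scaled library sizes, on which scale 3 counts correspond to between 2.28 and 3.04. KIKO replicate 2 stood apart. Across the genes tested, Pearson's r of log2 CPM was 0.672 to 0.747 for pairs that include it and 0.884 to 0.931 for pairs without it, where genes are not independent replicates. The biological coefficient of variation was 0.468 with it and 0.238 without it. Markers of microglia (13 of 13 genes), cerebellar granule neurons (6 of 6) and the choroid plexus (5 of 5) were detected in every library, with summed levels of 4995 to 12630, 1579 to 2334 and 7858 to 15546 normalized CPM. As the RNA came from a mixture of cells, fewer cells of a type and less RNA per cell cannot be told apart. Summed marker levels of KIKO and WT libraries did not overlap for neutrophils and monocytes (16.9 to 31.1 normalized CPM in WT and 32.5 to 95.4 in KIKO, 2 of 6 genes detected in every library, *Ly6g* at 0) and for fibroblasts (61.4 to 69.7 and 71.0 to 99.7, 3 of 4 genes). In both lists, the nearest WT and KIKO sums were closer than the level of 3 counts. The genes within these lists differed in direction. *S100a8*, *S100a9* and *Ngp* had higher KIKO means, and *Ccr2* and *Camp*, both near the floor, lower ones. *Col1a1* and *Col1a2* were higher in every KIKO library, *Dcn* overlapped, and *Lum*, near the floor, was lower in every KIKO library. The sums overlapped for the other lists, but for some through KIKO replicate 2 alone. In the choroid plexus list, KIKO replicates 1 and 3 (9437 and 7858) were below both WT libraries (12809 and 13897). KIKO replicate 2 (15546) was above them. Most of this sum was *Ttr* (13953 in KIKO replicate 2). *Kl* and *Clic6* were also above both WT libraries in KIKO replicate 2. *Enpp2* (1396 there, 2199 and 2240 in WT) and *Folr1* were lower in every KIKO library. KIKO replicates 1 and 3 were also below both WT libraries for microglia, border macrophages, and endothelial and mural cells and above both for Purkinje neurons. The nearest values were almost equal for border macrophages (186.9 in KIKO replicate 1, 187.3 in WT replicate 1) and microglia (5682 in KIKO replicate 3, 5739 in WT replicate 1). With all libraries, 0 of the 5 choroid plexus markers were past the thresholds given below. Without KIKO replicate 2, 3 of the 5 were, all lower in KIKO, as were 3.51% of all genes tested, and the median log2 fold change of the 5 was −1.004. In that fit, 2 of 6 oligodendrocyte markers were also lower and 2 of 5 Purkinje neuron markers higher, beside 2.94% of all genes higher. The microglia and the endothelial and mural lists had 1 lower each, and the astrocyte and the neutrophil and monocyte lists 1 higher each. In KIKO replicate 2, the microglial markers summed to 12630 (4995 to 7211 in the other libraries) and those of oligodendrocytes to 18861 (4540 to 11844). The part of these differences in the results below was not tested.

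Of the 10 genes, 9 passed the filter on low counts and *Gpam* did not. *Gk* and *Agpat4* were chosen for this very comparison and were not held against its thresholds, which leaves 7 genes. The libraries of KIKO and WT mice did not overlap in 5 of these 7. *Plin3*, *Lpin1* and *Pnpla2* had higher and *Fabp3* and *Plin2* lower values in KIKO. Of the 10889 genes tested, 16.7% did not overlap (8.2% higher and 8.51% lower), and of the 68 other pathway genes tested, 11 did not. The 7 genes were also chosen with earlier results of these data known, so their count is a description and was not tested. The thresholds required an absolute log2 fold change of more than 0.75 together with p below 0.05 before adjustment, both from the quasi-likelihood fit of edgeR. Of the 7 genes, *Plin3* (higher) was past them. Of all genes tested, 1.2% were, 0.716% higher and 0.487% lower, and with DESeq2 1.25% were (0.882% higher and 0.367% lower). None of the 7 genes had an adjusted p under 0.05 in edgeR's test, nor did any of the 10889. With 2 against 3 libraries, an exact permutation test of a single gene cannot give a p below 0.1. The medians of the fitted log2 fold changes were −0.213 over the 9 genes, the chosen pair included, and 0.022 over all genes tested.

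**Figure D1:**
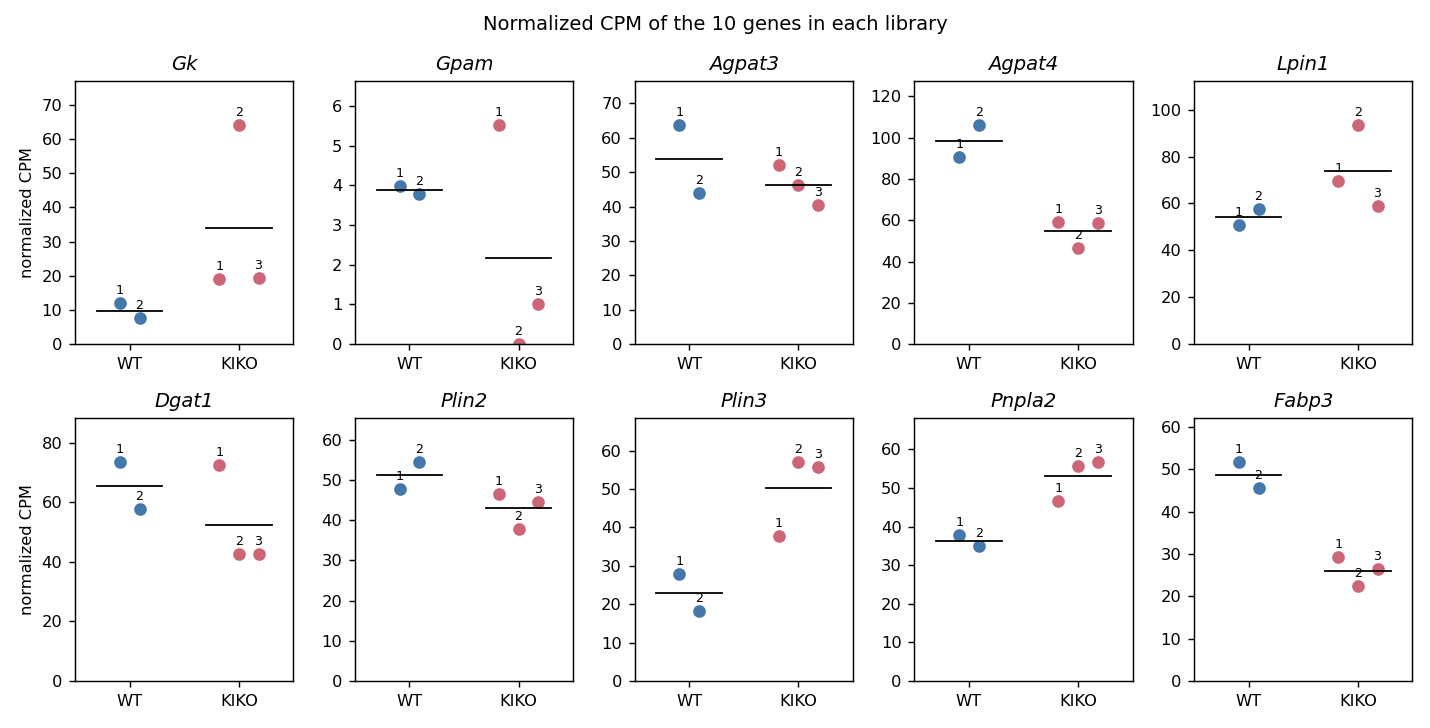
Normalized CPM (y axes, each starting at 0) of the 10 genes in the 2 WT (blue) and 3 KIKO (red) libraries, numbered by replicate, with a line at the mean of each genotype. The KIKO libraries lie between 46.4 and 59.1 for *Agpat4*, below both WT libraries, and *Gk* is 64.1 in KIKO replicate 2, far above the other two KIKO libraries.

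*Gk* (ENSMUSG00000025059, chromosome X, 85701937 to 85776819 on GRCm38), the glycerol kinase gene, was included for its higher level in KIKO mice. Its normalized CPM was 12 and 7.6 in WT replicates 1 and 2, and 18.9, 64.1 and 19.3 in KIKO replicates 1, 2 and 3. Every KIKO value was above both WT values, and KIKO replicate 2 was 3.39 times the lowest KIKO library. The WT mean was 9.77 ± 3.09 (SD, n = 2) and the KIKO mean 34.1 ± 26.0 (SD, n = 3), a fitted log2 fold change of 1.81 (standard error 0.74). These values rest on 22 counts in WT and 126 in KIKO libraries, for which counting alone would give a standard error of 0.33. Without KIKO replicate 2, the log2 fold change was 0.97 (standard error 0.62), and with sample quality weights it was 1.10 (0.62). It was 2.14 without WT replicate 1, 1.48 without WT replicate 2 and 1.51 with limma on the deposited log2 values. Its exons share 84 bases with the antisense gene *Gm14764*, and whether the counting used the strand is not given in the sources used here. *Gk* is X-linked and the labels give no sex. All 5 libraries had *Xist* counts (840 to 2856) and 0 counts of *Ddx3y*, *Uty*, *Kdm5d* and *Eif2s3y*. *Xist* was lowest in KIKO replicate 2.

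*Gpam* (ENSMUSG00000024978, chromosome 19, 55067268 to 55127238) was near the floor. It had 4 and 5 counts in the WT libraries and 7, 0 and 1 in the KIKO libraries, did not pass the filter and was not tested. Glycerol 3-phosphate acyltransferase transcripts came mostly from *Gpat4*, the gene of an enzyme of the endoplasmic reticulum, with between 63.9 and 151.5 normalized CPM. *Gpam* took from 0% (0 of 196 counts in KIKO replicate 2, 95% Wilson interval up to 1.92%) to 6.93% (7 of 101 counts in KIKO replicate 1, 3.4 to 13.6%) of the counts of *Gpam*, *Gpat3* and *Gpat4* together. Intervals here cover counting error only.

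*Agpat4* (ENSMUSG00000023827, chromosome 17, 12118704 to 12219645), the gene of an acyltransferase known to be abundant in brain, was included for its lower level in KIKO mice. Its normalized CPM was 90.6 and 106.2 in WT replicates 1 and 2, and 59.1, 46.4 and 58.9 in KIKO replicates 1, 2 and 3. The genotypes did not overlap, and the highest KIKO library was 1.28 times the lowest. The means were 98.4 ± 11 (SD, n = 2) and 54.8 ± 7.30 (SD, n = 3), a WT level 1.80 times that of KIKO (log2 fold change −0.85, standard error 0.36). The gene had 231 counts in WT and 193 in KIKO libraries, for which counting alone would give a standard error of 0.14. Its log2 fold change lay between −0.96 (without WT replicate 1) and −0.74 (without KIKO replicate 2, and also without WT replicate 2) under 13 alternatives.

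*Agpat3* (ENSMUSG00000001211, chromosome 10, 78269178 to 78352489), which encodes an enzyme of the same reaction, did not show this difference. It had 63.8 and 44.0 normalized CPM in WT and 52.0, 46.4 and 40.6 in KIKO libraries, and the genotypes overlapped. Its log2 fold change was −0.21 (standard error 0.41, edgeR adjusted p = 1). Without WT replicate 1, it was 0.07. Whether the 2 genes differ in their change was not tested. Within the 5 *Agpat* genes, which is free of the scaling between libraries, *Agpat4* took 36.4% (95% Wilson interval 30.7 to 42.5%) and 47.9% (42.3 to 53.7%) of the counts in WT replicates 1 and 2. In KIKO replicates 1, 2 and 3, it took 31.1% (25.6 to 37.2%), 20.5% (16.3 to 25.5%) and 27.4% (21.8 to 33.7%). The shares of the genotypes did not overlap, although the intervals of WT replicate 1 and KIKO replicate 1 did. As *Agpat4* was included for its lower level in these same libraries, its share describes that choice and is not separate evidence. *Agpat1*, *Agpat5* and *Agpat2* had fitted differences without a call or were not tested, with log2 fold changes of 0.33 (standard error 0.47) and 0.53 (0.47) for *Agpat1* and *Agpat5*, and *Agpat2* had between 0 and 5.0 normalized CPM.

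*Lpin1* (ENSMUSG00000020593, chromosome 12, 16535669 to 16610966), the phosphatidate phosphatase gene, had 50.8 and 57.6 normalized CPM in WT and 69.4, 93.5 and 58.9 in KIKO libraries. All KIKO values lay above the WT values, KIKO replicate 3 by little. The log2 fold change was 0.45 (standard error 0.40, edgeR adjusted p = 1), and 0.24 (0.33) without KIKO replicate 2. Within the lipin genes, *Lpin1* took 67.2% of the counts (95% Wilson interval 60.1 to 73.7%) in KIKO replicate 2 and between 30.1% and 36.8% in the other 4 libraries, where *Lpin2* held nearly all the rest. *Dgat1* (ENSMUSG00000022555, chromosome 15, 76502015 to 76511953), the gene of the final acylation, had 73.7 and 57.6 normalized CPM in WT and 72.6, 42.5 and 42.6 in KIKO libraries. The genotypes overlapped, as KIKO replicate 1 was as high as WT, and the log2 fold change was −0.32 (standard error 0.42, edgeR adjusted p = 1). *Dgat1* held between 78.6% and 93.9% of the counts of *Dgat1* and *Dgat2* in each library.

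Of the perilipin genes, *Plin3* was past the thresholds and *Plin2* was not. *Plin3* (ENSMUSG00000024197, chromosome 17, 56277476 to 56292873) encodes a perilipin that moves between the cytosol and droplets. It had 27.9 and 18.2 normalized CPM in WT replicates 1 and 2, and 37.9, 57.2 and 55.8 in KIKO replicates 1, 2 and 3. Every KIKO library was above both WT libraries. The means were 23.1 ± 6.85 (SD, n = 2) and 50.3 ± 10.8 (SD, n = 3), a KIKO level 2.19 times that of WT, and the log2 fold change was 1.13 (standard error 0.47, edgeR adjusted p = 1). Without KIKO replicate 2, it was 1.02 (standard error 0.43) and still past the thresholds, as were 6.45% of 10373 genes in that fit (2.94% higher and 3.51% lower), 0.0482% with an adjusted p under 0.05. It was not past them without KIKO replicate 1 (1.30), KIKO replicate 3 (1.05), WT replicate 1 (1.45) or WT replicate 2 (0.83), nor with DESeq2 (1.14). With 52 counts in WT and 177 in KIKO libraries, counting alone would give a standard error of 0.23.

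*Plin2* (ENSMUSG00000028494, chromosome 4, 86648386 to 86670060), the perilipin that is stable only on droplets and whose level is commonly used as a sign of lipid storage, had 47.8 and 54.6 normalized CPM in WT and 46.5, 37.9 and 44.6 in KIKO libraries. The KIKO values were below the WT values, KIKO replicate 1 lying close to WT replicate 1. The log2 fold change was −0.25 (standard error 0.39, edgeR adjusted p = 1). Set against each other within a library, *Plin3* took 36.8% (95% Wilson interval 26.9 to 48.1%) and 25% (17.4 to 34.5%) of the counts of both genes in WT replicates 1 and 2. It took 44.9% (35.8 to 54.3%), 60.2% (51.3 to 68.4%) and 55.6% (45.7 to 65%) in KIKO replicates 1, 2 and 3. The interval lay below 50% in both WT libraries and above it in KIKO replicate 2, and it included 50% in KIKO replicates 1 and 3. *Plin4* lay between 15.2 and 21.2 normalized CPM, *Plin5* between 0 and 3.0, and *Plin1*, the perilipin of adipocytes, had 0 counts in every library.

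**Figure D2:**
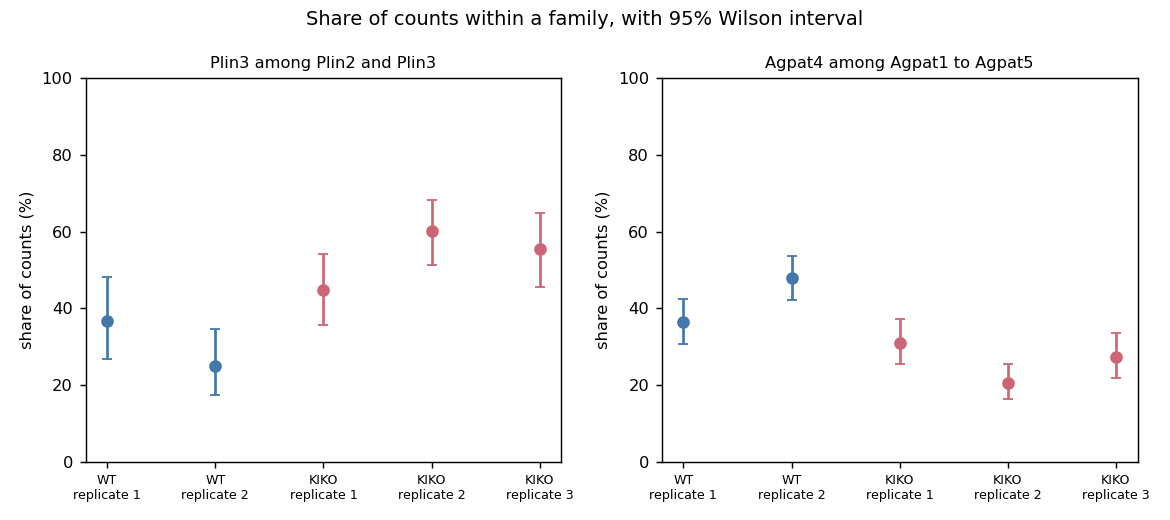
Share of counts (%, y axes from 0 to 100) taken by *Plin3* among *Plin2* and *Plin3* (left) and by *Agpat4* among *Agpat1* to *Agpat5* (right) in each library, with 95% Wilson intervals for counting error. *Plin3* is at 25% and 36.8% in WT (blue) and 44.9% to 60.2% in KIKO (red), and *Agpat4* at 36.4% and 47.9% in WT and 20.5% to 31.1% in KIKO. *Agpat4* was included after its lower level in these libraries had been seen.

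*Pnpla2* (ENSMUSG00000025509, chromosome 7, 141455198 to 141460743) encodes adipose triglyceride lipase, which takes the first fatty acid from stored triglyceride. It had 37.9 and 34.9 normalized CPM in WT and 46.5, 55.6 and 56.8 in KIKO libraries. All 3 KIKO libraries were above both WT libraries, the log2 fold change was 0.54 (standard error 0.40, edgeR adjusted p = 1), and it was 0.50 (0.37) without KIKO replicate 2. *Fabp3* (ENSMUSG00000028773, chromosome 4, 130308595 to 130315463) had 51.8 and 45.5 normalized CPM in WT and 29.2, 22.4 and 26.4 in KIKO libraries. No KIKO library reached the WT level, and the WT mean of 48.7 ± 4.45 (SD, n = 2) was above the KIKO mean of 26.0 ± 3.40 (SD, n = 3). The log2 fold change of −0.90 (standard error 0.43, edgeR adjusted p = 1) missed the thresholds with all libraries. Without KIKO replicate 2, it was −0.80 (standard error 0.39, edgeR adjusted p = 0.607) and passed them, as 3.51% of all genes did in this direction, among them 3 of the 5 choroid plexus markers, whose part in the result was not tested. *Fabp3* shares 80 and 81 exon bases (9.72% and 9.84% of its exon length) with *Gm10570* and *Zcchc17* on the opposite strand. *Fabp4*, *Fabp5* and *Fabp7*, other genes of the family, had at most 17.4 normalized CPM in any library.

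The spread within a genotype differed among the genes. On the log2 scale, the pooled SD of the libraries ranged from 0.13 for *Pnpla2* to 0.82 for *Gk*. Those of *Plin2* (0.14), *Fabp3* (0.16), *Agpat3* (0.25) and *Plin3* (0.35) were among those between them. KIKO replicate 2 was the highest or the lowest KIKO library for 7 of the 9 genes (*Gk*, *Lpin1* and *Plin3* highest; *Agpat4*, *Dgat1*, *Plin2* and *Fabp3* lowest), as it was for 87.2% of all genes tested. In the plot of fitted changes, the range over all alternatives stays on one side of 0 for 8 of the 9 genes and crosses it for *Agpat3*. The alternatives reuse the same libraries, and *Agpat4* and *Gk* were chosen for their change. The share of all genes that keep their side was not computed, so this count is a description.

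**Figure D3:**
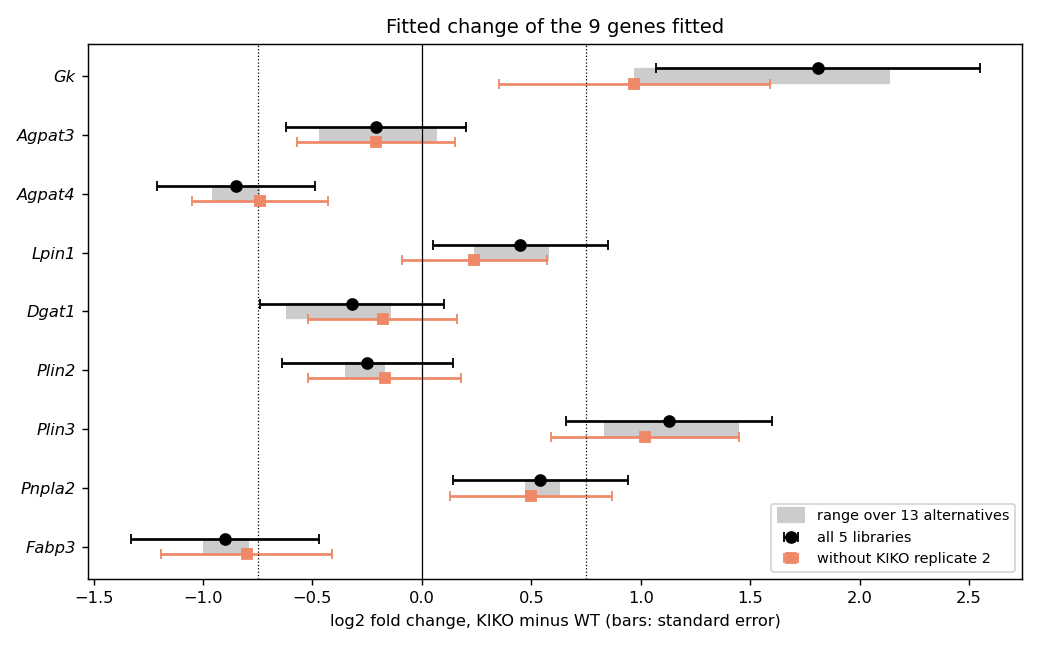
Fitted log2 fold change of KIKO minus WT (x axis) for the 9 genes fitted, with standard errors as bars, from all 5 libraries (black circles) and without KIKO replicate 2 (orange squares), over the range of 13 alternatives (grey). Dotted lines mark 0.75 in either direction; *Gk* moves from 1.81 to 0.97 without KIKO replicate 2, and *Plin3* from 1.13 to 1.02.

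Levels of different genes were compared per kb of exon. On this scale, the means over the 5 libraries, which pool the genotypes, were 42.6 normalized CPM per kb for *Fabp3*, 26.8 for *Agpat4*, 18.9 for *Dgat1*, 15.4 for *Pnpla2*, 13.2 for *Plin2*, 10.4 for *Plin3*, 6.83 for *Lpin1*, 6.34 for *Agpat3*, 3.15 for *Gk* and 0.43 for *Gpam*. The ranges of the libraries overlapped between all neighbours in this order except *Gk* (0.98 to 8.28) and *Gpam* (0 to 0.83). The methods name a digital mRNA-seq service and the labels a stranded kit. If reads came from the 3′ end only, length would not enter, and on the scale of normalized CPM *Agpat4* had the highest WT mean (98.4) and *Lpin1* the highest KIKO mean (73.9), with *Fabp3* at 48.7 and 26.0. Among isozymes on the scale per kb, the leading genes by mean were *Gpat4* (15), *Agpat4* (26.8), *Dgat1* (18.9) and *Fabp3* (42.6). *Plin2* (10.8 to 15.6) and *Plin3* (4.81 to 15.1) overlapped in range over the libraries. *Lpin2* (8.20) and *Lpin1* (6.83) also overlapped, and *Mgll*, the monoglyceride lipase gene, stood at 28.0 with *Pnpla2* at 15.4.

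**Figure D4:**
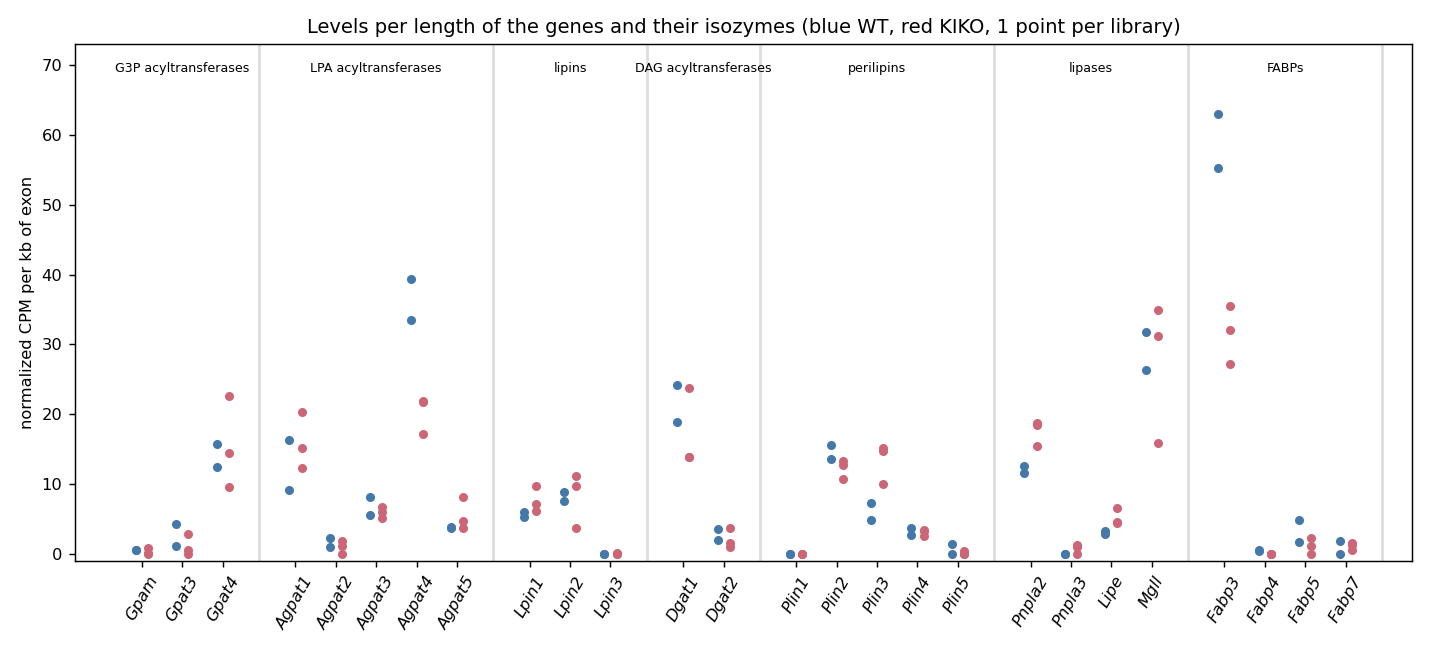
Normalized CPM per kb of exon (y axis) of the genes and their isozymes, grouped by enzyme or protein family, 1 point per library (blue WT, red KIKO). *Fabp3* lies between 27.2 and 62.9 and *Agpat4* between 17.2 and 39.3, whereas *Gpam*, *Lpin3*, *Plin1* and *Fabp4* lie near 0.

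The rest of the pathway was read from 10 lists that hold 93 other genes, of which 92 were in the table and 68 were tested. None of the 68 passed the thresholds, which 1.2% of all genes tested did, and none had an unadjusted p under 0.05 in edgeR's test or an adjusted p under 0.05, 34 were fitted higher and 34 lower in KIKO, and their median log2 fold change was 0.000. The genotypes did not overlap in 11 of them (16.7% of all genes tested). Without KIKO replicate 2, 5 of 63 passed, beside 6.45% of all genes: *Ppargc1a* higher and *Acsl4*, *Plpp2*, *Cept1* and *Elovl5* lower, with 24.7% of the exon length of *Cept1* shared with *Dennd2d* on the opposite strand. The 5 were named after their values were seen.

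Genes that supply glycerol 3-phosphate and activate fatty acids (10 tested, 0 called, median log2 fold change 0.138) included *Gpd2*, the mitochondrial glycerol 3-phosphate dehydrogenase gene, at 119.6 ± 8.30 normalized CPM in the WT libraries (SD, n = 2) and 115.5 ± 14.9 in the KIKO libraries (SD, n = 3). For *Acsl1*, a long-chain acyl-CoA synthetase gene, the log2 fold change was −0.02 (standard error 0.37). Among the acyltransferases to phosphatidate (5 tested, 0 called, median 0.135), the log2 fold change of *Gpat4* was 0.14 (standard error 0.44). Among the phosphatidate phosphatases (4 tested, 0 called, median −0.134), that of *Lpin2* was −0.00 (0.49), with 100.2 ± 10.7 (SD, n = 2) normalized CPM in WT, and that of *Plpp3* 0.57 (0.40). *Dgat2* was the only gene of the final acylation list that was tested (−0.37, standard error 0.93), and *Mogat1* and *Mogat2* had at most 2.0 normalized CPM. *Plpp3* differed by more than its standard error, as did *Agpat5* above, whose exons share 18.9% of their length with the antisense gene *Gm35934*. Other genes of these lists did so too, without a call. *Plpp2* (−2.62, standard error 1.19, 0 to 4.1 normalized CPM in KIKO libraries) and *Lclat1* (−1.08, 0.80) were lower in KIKO. *Slc27a1* (0.69, 0.64) and *Acsl6* (0.61, 0.46) were higher. They were named after their values were seen.

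Genes of the droplet coat and of droplet formation (7 of 15 tested, 0 called, median 0.053) were led by *Bscl2*, the seipin gene (−0.43, standard error 0.41), and *Hilpda*, whose protein inhibits the lipase of *Pnpla2* (0.16, standard error 0.47). Among the genes of triglyceride breakdown (7 of 8 tested, 0 called, median −0.224), *Mgll* had a log2 fold change of −0.09 (0.43) and *Ddhd2*, a triglyceride lipase gene of the brain, 0.40 (0.36). The genotypes did not overlap in 4 of these 7 genes, 2 higher and 2 lower, beside 16.7% of all genes tested (8.2% higher and 8.51% lower). This list had the highest such count and is given for that reason. No other list had more than 2, and 11 of the 68 genes of all lists did not overlap. For fatty acid uptake and binding, 1 of 7 genes was tested, *Cd36* (−0.52, standard error 0.81). In the phospholipid branches (18 of 20 tested, 0 called, median −0.012), the choline kinase gene *Chka* stood at 813.7 ± 17.0 normalized CPM in the WT libraries (SD, n = 2) and 856.3 ± 66.9 in the KIKO libraries (SD, n = 3), and *Etnk1*, the ethanolamine kinase gene, had a log2 fold change of −0.35 (0.42).

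**Figure D5:**
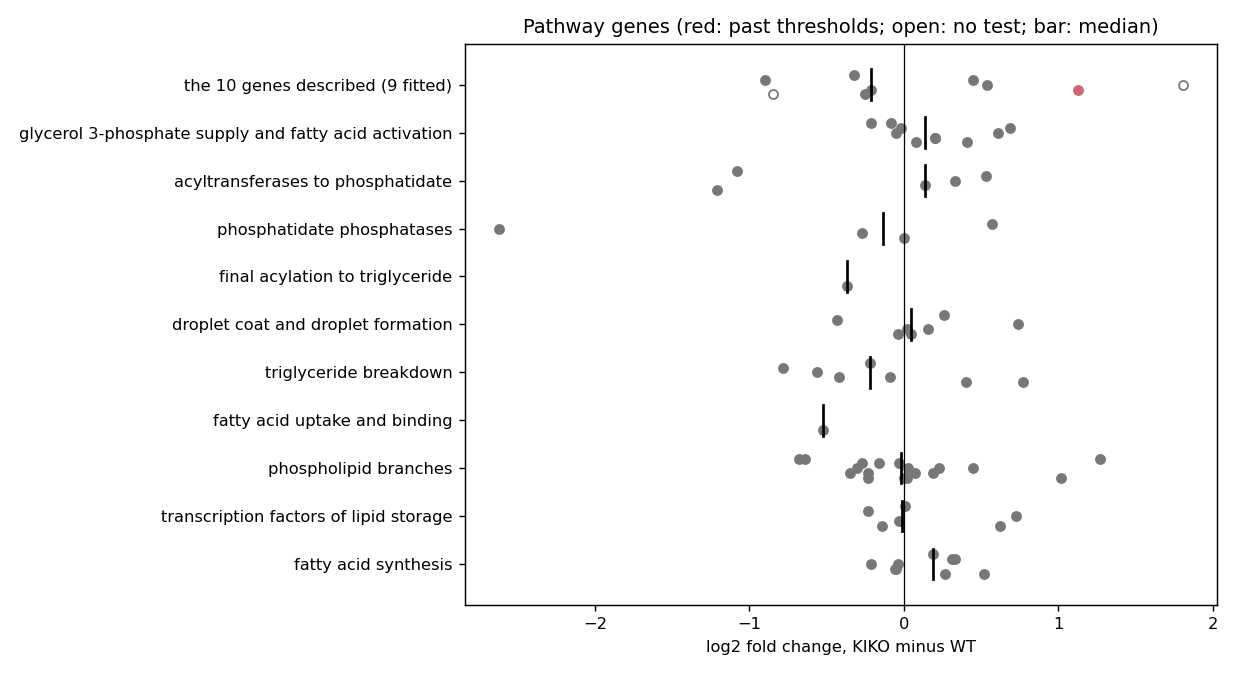
Fitted log2 fold change of KIKO minus WT (x axis) of each gene tested, by list (rows), with a black bar at the median of the list, genes past the thresholds in red, and *Agpat4* and *Gk*, chosen for their change and not tested, as open circles. The only red point is *Plin3* at 1.13, and the medians of the other lists lie between −0.520 and 0.194.

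The genes whose profile over the 5 libraries was nearest to that of *Agpat4*, among 4000 genes of at least 50 normalized CPM, were *Rtf1*, *Tmf1* and *Samd4b*, with a mean absolute difference of centred log2 CPM of 0.072, 0.095 and 0.120. *Rtf1*, for example, had 178.3 and 214.6 normalized CPM in WT and 128.5, 89.6 and 130.9 in KIKO libraries. For *Gk*, they were *Nptx1* (0.218), *Pacsin1* (0.228) and *Cd74* (0.276), each highest in KIKO replicate 2. None of these 6 genes is on the lists of lipid genes.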

How the data were processed

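Bulk RNA sequencing counts of 2 WT and 3 KIKO cerebellar samples were analysed. Per the methods and labels, reads were trimmed (Trimmomatic), mapped to the mm10 build (HISAT2) and assigned to genes (featureCounts) by the authors; annotation, strand setting and the treatment of multiply mapped reads are not given in the sources used here. The deposited counts are whole numbers without normalization. The deposited log2 values are normalized by the authors with DESeq2. Columns were matched to samples by title, and 2 columns per table that match no sample label were not used. Names, positions and exon lengths came from GENCODE M21 (GRCm38) and were found for 31011 of 31053 identifiers.

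The analysis used edgeR 4.0.16 under R 4.3.3, with filterByExpr (minimum count 10, minimum total 15, 10889 genes kept), TMM, and the two-sided quasi-likelihood test of KIKO against WT with Benjamini-Hochberg adjustment over all genes tested. Thresholds were those of the study, an absolute log2 fold change of more than 0.75 with p below 0.05 before adjustment. The fit was tested on simulated data in which all libraries shared the same dispersion and none stood apart as KIKO replicate 2 does. The simulation therefore does not show how the fit behaves with such a library. Alternatives were DESeq2 1.42.0, RLE factors, library size alone, 2 filters, the replicate number as a block, limma 3.58.1 with trend on the deposited log2 values, sample quality weights, and leaving out each library. The samples come from mice not described individually, so p-values measure the spread between these samples. The genes and lists were chosen with earlier results of these data known. Genes named were the 10 genes, pathway genes past the thresholds and up to 2 genes with the highest mean per list. For *Agpat4* and *Gk*, the 3 nearest profiles were named as well. Isozymes, markers and other genes given besides were named after their values were seen. The level of the targeted gene is not reported here.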

Additional observations from a re-analysis of the deposited data

How the results depend on the processing

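The number of genes past the thresholds (131) was 383 with all genes of at least 1 count, 271 with the replicate block and 519 with sample quality weights, and between 56 (without WT replicate 1) and 669 (without KIKO replicate 2) with 1 library left out. It was within 1.5 times 131 with DESeq2 (136), library size alone (137), RLE factors, limma with trend and the stricter filter of 10 counts per sample. Higher calls made up 59.5% of the 131, 70.6% with DESeq2, 68.6% with library size alone and 40.2% with the replicate block. Without a WT library, the lone WT sample was assumed to vary like the KIKO samples. *Plin3* missed the thresholds with DESeq2 (1.14), with all genes of at least 1 count (1.12) and with the replicate block (1.04), and with 1 library left out its log2 fold change was between 0.83 and 1.45. *Fabp3* passed them with sample quality weights (−0.79), and with 1 library left out it was between −1.0 and −0.80. *Gk* was between 0.97 and 2.14 and *Agpat3* between −0.47 and 0.07 with 1 library left out. Of the other pathway genes, 2 of 85 passed with all genes of at least 1 count (*Plpp2* and *Cidea*), beside 383 of 16822 genes tested. With the replicate block, 1 of 68 passed (*Abhd6*), beside 271 of 10889, and with sample quality weights 2 of 68 (*Plpp2* and *Cept1*), beside 519 of 10889. Between 0 and 5 passed with 1 KIKO library left out, beside 111 to 669 of all genes. With 1 library of either genotype left out, the median log2 fold change of these pathway genes was between −0.129 and 0.18. For all of these, the cause was not tested. Same-numbered libraries had deviations from their genotype's mean that correlated across genes with r of 0.18 and 0.239, but WT replicate 1 and KIKO replicate 3 had 0.218, and only 2 pairs exist, so the numbers were not taken to pair the mice. *Lpin1*, *Dgat1*, *Plin2* and *Pnpla2* kept their direction and stayed outside the thresholds under all 13 alternatives. Depth limits low genes such as *Gpam*, which did not pass the filter and was not tested.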

Other observations

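The transcription factors of lipid storage and the enzymes of fatty acid synthesis were not part of the 10 genes. Of the 6 tested transcription factor genes, none passed the thresholds in edgeR's test, and their median log2 fold change was −0.014. *Mlxipl*, which encodes a glucose-responsive activator of lipogenic genes, averaged 44.6 ± 10.9 normalized CPM over the WT libraries (SD, n = 2) and 38.2 ± 6.78 over the KIKO libraries (SD, n = 3). *Ppargc1a*, the gene of a coactivator of mitochondrial genes, had 20.1 ± 5.89 and 33.6 ± 8.44, a log2 fold change of 0.73 (standard error 0.51). Of the 9 fatty acid synthesis genes tested, none passed, and their median was 0.194. *Scd2*, the main stearoyl-CoA desaturase gene of the brain, ranged from 99.6 to 317.6 and *Elovl5*, a fatty acid elongase gene, from 40.6 to 155.3 normalized CPM, and both were highest in KIKO replicate 2.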
